A study of Homo sapiens with 62 samples.

Results

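The genes described here are the 9 of the insulin-like growth factor (IGF) system that encode the binding proteins IGFBP1 to IGFBP7 and the receptors IGF1R and INSR. They were found by gene name, with 1 row each, among the 58735 genes listed for 4 of the cell lines and the 48162 listed for the fifth, A2780. The family was picked on a result of these data, a higher level of IGFBP6 in clones that lost a 1q gain in 3 lines. Values from comparisons of 1q loss are therefore given as a description, without p-values. So is IGFBP6 in A2780 TK+ against WT and for hRas in the 1q-loss clones of MCF10A, which use libraries of those comparisons. The study sequenced the messenger RNA of 5 human lines with an extra copy of a chromosome arm, and of clones derived from them, in 62 libraries, to ask what changes when the extra arm is lost.

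A2058, a melanoma line with gains of 1q, 7p and 8q, had 4 WT (unmodified) libraries and libraries of clones that had lost 1 gain: 4 of 1q-loss (2 clones), 6 of 7p-loss (3 clones) and 4 of 8q-loss (2 clones). HCT116, a colorectal cancer line with a gain of 8q, had 2 WT and 4 8q-loss libraries (2 clones). AGS, a gastric cancer line with a gain of 1q, had 1 WT library, 2 libraries of clones that carry a TK integrant and keep the gain (TK+), and 5 of 1q-loss, each from its own clone. A2780, an ovarian cancer line with a gain of 1q, had 2 WT, 2 TK+ and 6 1q-loss libraries (3 clones). MCF10A, a breast epithelial line, had 2 WT and 8 1q-loss libraries (4 clones), and the same numbers of libraries with hRASV12, the oncogenic mutant of the HRAS GTPase (below, hRas). Loss clones were derived from single cells with ReDACT, a set of methods that remove an extra chromosome arm: the version called CO in A2058, HCT116, AGS clone 11 and MCF10A clone 4, TR in MCF10A clones 1 to 3, and NS in the other AGS clones and in A2780. All cells were grown for 24 hours between plating and RNA extraction. Where several libraries came from 1 clone they are not independent samples, and the labels do not say that replicate libraries came from separate cultures, so p-values measure the spread between libraries, part of which may be technical.

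IGF-binding proteins are secreted proteins that hold IGF1 and IGF2 outside the cell and so control how much ligand reaches the receptors. IGFBP1 to IGFBP6 bind IGFs with high affinity, and IGFBP6 prefers IGF2, while IGFBP7 is a related protein of low affinity. IGF1R and INSR are receptor tyrosine kinases that signal through the IRS proteins to PI3K and AKT, and proteases such as PAPPA cut binding proteins and release the bound ligand.

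IGFBP6, the gene that led to the choice of the family, lies on chromosome 12 (GRCh38, 53097436 to 53102345, plus strand, ENSG00000167779). IGFBP1 and IGFBP3 are neighbours on chromosome 7, on the 7p arm that A2058 gains, and IGFBP2 and IGFBP5 are neighbours on chromosome 2. IGFBP4 lies on chromosome 17, IGFBP7 on chromosome 4, IGF1R on chromosome 15 and INSR on chromosome 19. None of the 9 lies on 1q or 8q. IGFBP7 overlaps POLR2B, which is transcribed from the opposite strand, and whether the counting used the strand is not given in the sources used here.

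RefSeq promoter windows (GRCh38.p14), which run up to the annotated start, were matched for 7 of the 9 genes. IGFBP1 and IGFBP7 had none. Stretches of 2 are shown because IGFBP3 and IGFBP6 were both higher in the 1q-loss clones of A2058, and because they differ in their letters. The IGFBP3 stretch, at chr7:45921275-45921522 on the minus strand, lies inside the IGFBP3 gene interval that the count tables give (45912245 to 45921874), and its capitals mark a match to GGGCGG read from the other strand. The IGFBP6 stretch, at chr12:53097470-53097498 on the plus strand, also lies inside its gene interval in the tables. It is held to 29 bases because GENCODE 29 annotates most of that window as transcribed, and its capitals mark a match to GTAAACA.
IGFBP3: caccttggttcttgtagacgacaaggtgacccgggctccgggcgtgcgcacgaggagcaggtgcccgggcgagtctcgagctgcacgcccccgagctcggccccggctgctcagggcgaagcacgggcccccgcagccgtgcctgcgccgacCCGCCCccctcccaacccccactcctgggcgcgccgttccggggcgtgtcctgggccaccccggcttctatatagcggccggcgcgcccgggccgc
IGFBP6: caatttgggaaGTAAACAgaaactggaaa

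The letters GTAAACA, a core that forkhead factors such as FOXO1 can bind, were searched on both strands of the 250 bases before each start. They occurred in the window of IGFBP6 and in none of the other 6 members with a window, against 2.98% of all 35116 windows. GGGCGG was found in 6 of the 7 windows (all but IGFBP5), against 42.6% of all windows. TATAAA was found in IGFBP4 alone, against 10.7%. TGANTCA and CACGTG, present in 6.57% and 6.34% of all windows, were found in none of the 7. Matches to different motifs did not overlap in these windows, and a match is a string of letters, not a measured binding site. The IGFBP3 stretch was 75.8% G and C.

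Libraries held 15042068 to 30984036 counts. Levels below are counts per 1000000 counts after TMM scaling (CPM) unless a level per length is named. The lines differed in their lineage markers: all 6 melanocytic genes listed reached 1 CPM in A2058 WT, all 6 basal breast genes in MCF10A WT and all 6 gastric genes in the AGS controls. In HCT116 WT, 3 of the 5 intestinal genes listed (EPCAM, CDH1 and CDX2) reached 1 CPM, KRT20 stayed under it and VIL1 had no counts. In the A2780 controls, 2 of the 5 ovarian epithelial genes listed (EPCAM and KRT8) reached 1 CPM in at least 1 library, PAX8 and MUC16 stayed under it and WT1 had no counts, whereas all 5 fibroblast genes listed (COL1A1, COL1A2, LUM, DCN and PDGFRB) were above 1 CPM.

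Each line had its own set of binding proteins. To compare genes, counts were divided by gene length and scaled to 1000000 per library, and these levels per length are given for libraries that keep the gain. A2058 had the largest summed binding-protein level (1458 to 1775, n = 4), and A2780 the smallest (28.5 to 60.7, n = 4). HCT116 (418 to 542, n = 2), AGS (202 to 331, n = 3) and MCF10A (244 to 287, n = 2) lay between, and the ranges of AGS and MCF10A overlapped. The A2780 tables use other gene lengths than the rest, so its levels per length are not on quite the same scale.

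The main binding protein differed from line to line. IGFBP5, which is often found in matrix, took 44.8% of the summed level in A2058 (41.8 to 48.7%, n = 4), followed by IGFBP7 (26.9 to 33.2%) and IGFBP4 with 17.7%. IGFBP2 took 75.6% in HCT116 (73.3 and 77.9%, n = 2), where IGFBP6 made up nearly all of the rest. IGFBP6 led in MCF10A with 65.4% (63.7 and 67.1%, n = 2) and in A2780 with 62.3% (59.7 to 65.2%, n = 4). In AGS the shares of IGFBP4 (32.3 to 51.4%), IGFBP6 (23.9 to 48.9%) and IGFBP2 (15.6 to 37.9%) overlapped, so no member led there beyond the spread.

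IGFBP6 itself was detected in all 62 libraries. Its level per length in libraries that keep the gain was highest in MCF10A (164 and 183) and lowest in A2058 (9.43 to 17). HCT116 (110 and 118), AGS (48.2 to 162) and A2780 (17.7 to 39.6) fell between. The ranges of HCT116 and AGS overlapped. Those of A2058 and A2780 came close, at 17 and 17.7. The IGFBP6 length used was 1177 bases in A2780 and 1346 bases in the other lines, so this gap cannot be read as a difference beyond their ranges. IGFBP1, a binding protein best known from liver, had no counts in 59 libraries and 1 count in each of the other 3. A count of 0 allows up to 3 counts, which is 0.0968 to 0.199 CPM at these depths and covers counting error only. IGFBP5 likewise had no counts in 19 of 20 MCF10A libraries and 1 count in the other, against 112 to 1791 CPM in A2058.

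The receptors also separated the lines. IGF1R had its highest level per length in A2780 (95.1 to 141, n = 4), above A2058 (25.8 to 35.2), MCF10A (26.9 and 30.6) and AGS (14.2 to 19), and HCT116 had the lowest (1.45 and 1.75). A2058 and MCF10A did not differ beyond their ranges. INSR ran from 22.7 to 30.3 in A2780 and 13.3 to 16.7 in AGS to 7.84 and 9.81 in MCF10A and 1.01 and 2.24 in HCT116. A2058 stood apart with 0 to 22 INSR counts in each of its 18 libraries, at most 1.02 CPM, and the filter on low counts kept the gene out of the main fits in that line. The ligand genes were nearly silent: INS had no counts in any library, IGF2 stayed below 1 CPM everywhere, and IGF1 reached at most 3.79 CPM, in an AGS 1q-loss clone.

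**Figure D1:**
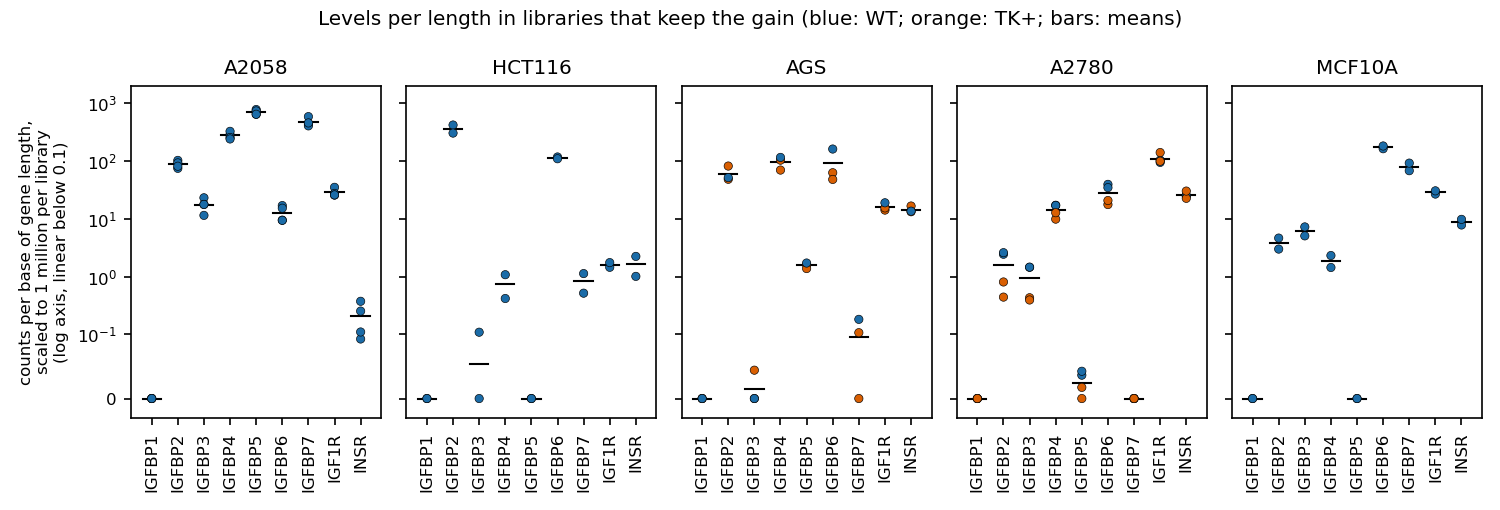
Level per length of the 9 genes (counts per base of gene length scaled to 1000000 per library, log axis that is linear below 0.1) in WT (blue) and TK+ (orange) libraries of each line, 1 point per library with bars for means. IGFBP5 stands highest in A2058, IGFBP2 in HCT116, IGFBP6 in MCF10A and IGF1R in A2780, and IGFBP1 lies at 0 throughout.

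In A2058, loss of 1q went with a changed set of binding proteins. IGFBP3, a main carrier of IGFs in serum, measured 200 and 239 CPM in clone 1 and 228 and 242 CPM in clone 2, against 13.7 to 27.5 CPM in WT. IGFBP4, which mostly restrains IGF action, measured 522, 649, 660 and 777 CPM against 140 to 196 CPM. IGFBP6 measured 22.1 and 21.9 CPM in clone 1 and 30.4 and 28.1 CPM in clone 2, against 3.35, 3.33, 5.96 and 5.58 CPM. For all 3 genes every 1q-loss library lay above every WT library, in both clones. The share of all genes whose groups separate in this way was not counted, here or in the comparisons below. In this comparison 49.6% of all genes tested were called. The fitted folds were 10.7 for IGFBP3 (log2 3.42, SE 0.176), 4.02 for IGFBP4 (log2 2.01, SE 0.135) and 5.60 for IGFBP6 (log2 2.49, SE 0.213).

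Other members went the opposite way in the same clones. IGFBP2 measured 9.73 and 13.4 CPM in clone 1 and 3.35 and 3.02 CPM in clone 2, against 92.8 to 133 CPM in WT. IGFBP5 measured 353 and 435 CPM in clone 1 and 112 and 113 CPM in clone 2, against 1096 to 1310 CPM. IGF1R measured 47.7 and 47.4 CPM in clone 1 and 31.7 and 31.1 CPM in clone 2, against 94.2 to 127 CPM. All 3 were lower in every 1q-loss library than in any WT library, and lower in clone 2 than in clone 1. The log2 fold changes were -3.93 (SE 0.404) for IGFBP2, -2.24 (SE 0.411) for IGFBP5 and -1.42 (SE 0.162) for IGF1R. IGFBP7 was 384 to 515 CPM against 206 to 295 CPM, a log2 fold change of 0.97 (SE 0.123).

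All 7 members tested in A2058 1q-loss were called at an adjusted p under 0.05 (edgeR's quasi-likelihood test, Benjamini-Hochberg over all genes tested), 4 higher and 3 lower. In the same comparison 49.6% of all 15387 genes tested were called, so this count is no mark of the family. The median log2 fold change was 0.97 over the 7 members and 0.00 over all genes. Set against the 7p-loss (n = 6) and 8q-loss (n = 4) libraries together, without WT, the same 7 members were called where 36.0% of genes were. IGFBP6 stood at a log2 difference of 2.18 (SE 0.231) there. In that second comparison IGFBP2 and IGFBP5 lost their call when clone 2 was left out (log2 -2.06 and -1.30) and when libraries of a clone were summed (-2.76 and -1.94).

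As a share of the summed level per length, IGFBP5 was 6.23% in the 1q-loss libraries (2.47 to 9.91%, n = 4) where it was 44.8% in WT, and IGFBP4 was 45.4% (42.9 to 49.6%) where it was 17.7%. IGFBP7 took 37.6% (35.9 to 40.4%). The summed level was 2108 to 2665 in 1q-loss and 1458 to 1775 in WT, with no overlap. The melanocytic markers SOX10, MITF, PMEL, MLANA, TYR and DCT moved with these values: their summed level was 49.5 to 255 CPM in the 1q-loss libraries against 2486 to 4399 CPM in WT, and 1196 to 4648 CPM in 7p-loss and 2087 to 3864 CPM in 8q-loss. The basal breast list summed to 51.2 to 266 CPM in 1q-loss and 1.08 to 3.30 CPM in WT, the fibroblast list to 147 to 273 CPM and 36.7 to 46.1 CPM, and the gastric list to 168 to 214 CPM and 82.1 to 107 CPM. The part of these marker changes in the IGF family values was not tested.

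**Figure D2:**
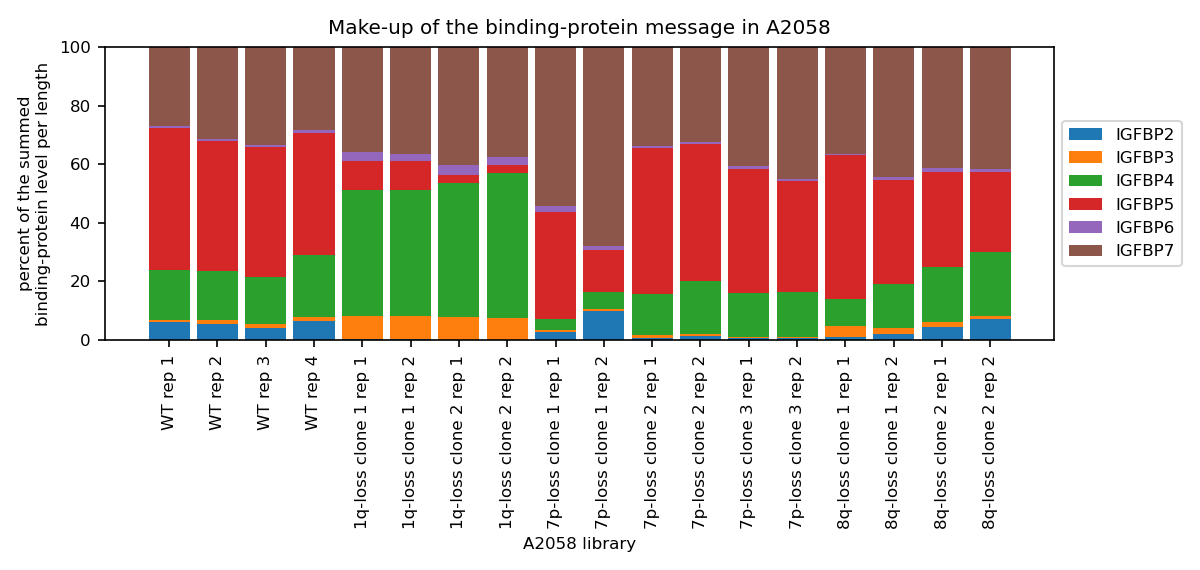
Share (percent) of each binding protein in the summed binding-protein level per length, 1 stacked bar per A2058 library. IGFBP5 (red) holds 41.8 to 48.7% of the WT bars and 2.47 to 9.91% of the 1q-loss bars, where IGFBP4 (green) holds 42.9 to 49.6%.

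Of the 10 listed proteases and partners, which cut or shield binding proteins, 7 were tested in A2058 1q-loss, and 5 of these were called higher, 1 lower and 1 not at all, beside the 49.6% of all genes called. PAPPA, the protease that cleaves IGFBP4, was at 124 to 235 CPM (n = 4) against 10.4 to 32.9 CPM in WT. STC1, a stanniocalcin of the kind that inhibits PAPPA, was at 901 to 1388 CPM against 4.26 to 14.6 CPM, a log2 fold change of 6.86 (SE 0.390). Its relative STC2 was at 176 to 261 CPM against 4.82 to 9.51 CPM. For none of the 3 did the groups overlap, and the share of all genes without overlap was not counted. The serine protease HTRA1 was at 722 to 1351 CPM against 244 to 285 CPM, and PAPPA2 had 42 to 67 counts against 0 to 2. The metalloprotease ADAMTS1 was the member called lower (log2 -1.02, SE 0.218).

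Downstream of the receptors, the adaptors IRS1 and IRS2 went opposite ways in A2058 1q-loss. IRS1 was at 165 to 208 CPM against 40.1 to 64.9 CPM (log2 1.99, SE 0.148), and IRS2 at 40.0 to 66.7 CPM against 275 to 362 CPM (log2 -2.71, SE 0.162). Over the 46 pathway genes listed, 37 were tested, 14 were called higher and 6 lower, again beside the 49.6% of all genes. Of 14 PI3K, AKT and FOXO genes tested, 2 were called higher, with FOXO1 at a log2 fold change of 0.66 (SE 0.108), and 3 lower, with PIK3CB at -0.95 (SE 0.0916). IGF2BP1, which binds IGF2 mRNA, was at 1.79 to 7.41 CPM against 0.0866 to 0.465 CPM. INSRR, an orphan relative of the insulin receptor that lies on 1q, had 12 to 23 counts against 1 to 2. In the CCN family, whose proteins share a domain with the binding proteins, WISP1 was called higher (log2 5.19, SE 0.210) and NOV lower (log2 -2.40, SE 0.239).

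In AGS, 4 of the 5 clones without the 1q gain had more IGFBP6 than any control, and clone 1 did not. IGFBP6 measured 65.1 CPM in the WT library and 26.6 and 19 CPM in the TK+ clones. It was at 64.0 CPM in loss clone 1, 112 CPM in clone 4, 145 CPM in clone 11, 230 CPM in clone 6 and 244 CPM in clone 7. Clone 1 thus lay at the level of WT, and the WT library lay above both TK+ clones. The log2 fold change was 2.11 (SE 0.529) against all 3 controls, 1.29 (SE 0.704) against the single WT library and 2.83 (SE 0.556) against TK+, and neither of the last 2 was called.

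IGFBP2 in AGS measured 189, 194, 159, 228 and 222 CPM in clones 11, 1, 4, 6 and 7 and 73.7, 123 and 67.7 CPM in WT and TK+. Here the groups did not overlap (log2 1.18, SE 0.215). IGF1R was at 72.3 to 123 CPM in the loss clones and 62 to 78.9 CPM in the controls, which overlapped. IGFBP6 and IGFBP2 were the 2 members called of 6 tested, where 7.55% of 14988 genes were called. As the rise of IGFBP6 served to pick the family, nothing is read from this count. The call of IGFBP6 was lost without loss clone 4 (log2 2.22), 6 (1.94) or 7 (1.91), without TK+ clone 1 (1.92) or 2 (1.80) and without the WT library (2.83). That of IGFBP2 was lost without TK+ clone 2 (1.01) or the WT library (1.08). Of the pathway genes, 26 were tested and 2 were called, both lower: SHC1, an adaptor on the lost arm (log2 -0.93, SE 0.166), and PIK3R1, the regulatory subunit of PI3K (log2 -0.66, SE 0.136). The gastric marker list summed to 5903 to 7887 CPM in the loss clones and 3914 to 5442 CPM in the controls, and the ovarian list, which shares EPCAM and KRT8 with it, to 4206 to 5562 CPM and 2762 to 3676 CPM. Neither list overlapped between the groups, and their part in the AGS values was not tested.

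In A2780, where IGFBP1, IGFBP5 and IGFBP7 had too few counts for the main fit, IGFBP6 was higher in the loss clones than in the controls. It measured 31 and 26.1 CPM in clone 2, 104 and 69.6 CPM in clone 5 and 41.9 and 38.8 CPM in clone 6. The WT libraries held 18.6 and 15.3 CPM and the TK+ libraries 8.46 and 8.80 CPM. All 6 loss libraries lay above all 4 controls, with clone 5 highest and clone 2 lowest. The log2 fold change was 2.02 (SE 0.420) against WT and TK+ together, 2.58 (SE 0.560) against TK+ and 1.61 (SE 0.528) against WT, where it was not called. IGFBP6 was the 1 member called of 6 tested, where 11.8% of 15044 genes were. The call of IGFBP6 here is among the values the family was picked on, and nothing is read from this count.

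IGF1R, already high in A2780, was at 765 and 926 CPM in clone 5 and 472 to 537 CPM in clones 2 and 6, against 448 to 598 CPM in the controls. Only clone 5 lay above the controls. IGFBP4 had a log2 fold change of 0.15 (SE 0.250), and INSR was at 68.6 to 97.8 CPM against 82.8 to 97.6 CPM. Of 30 pathway genes tested, 3 were called, beside the 11.8% of all genes, and all 3 were higher: PAPPA (log2 3.85, SE 0.999), PIK3CA (log2 0.38, SE 0.0974) and IGF2BP3 (log2 0.34, SE 0.0989). PAPPA ran from 0.296 to 12.5 CPM over the loss libraries against 0.220 to 0.444 CPM in the controls, so the groups overlapped. The fibroblast list differed between the A2780 groups too, at 993 and 1004 CPM in WT, 313 and 401 CPM in TK+ and 515 to 3002 CPM in 1q-loss. The ovarian list summed to 133 to 142 CPM in WT, 3.75 to 4.91 CPM in TK+ and 4.06 to 45.3 CPM in 1q-loss. The part of these lists in the values of IGFBP6 was not tested.

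**Figure D3:**
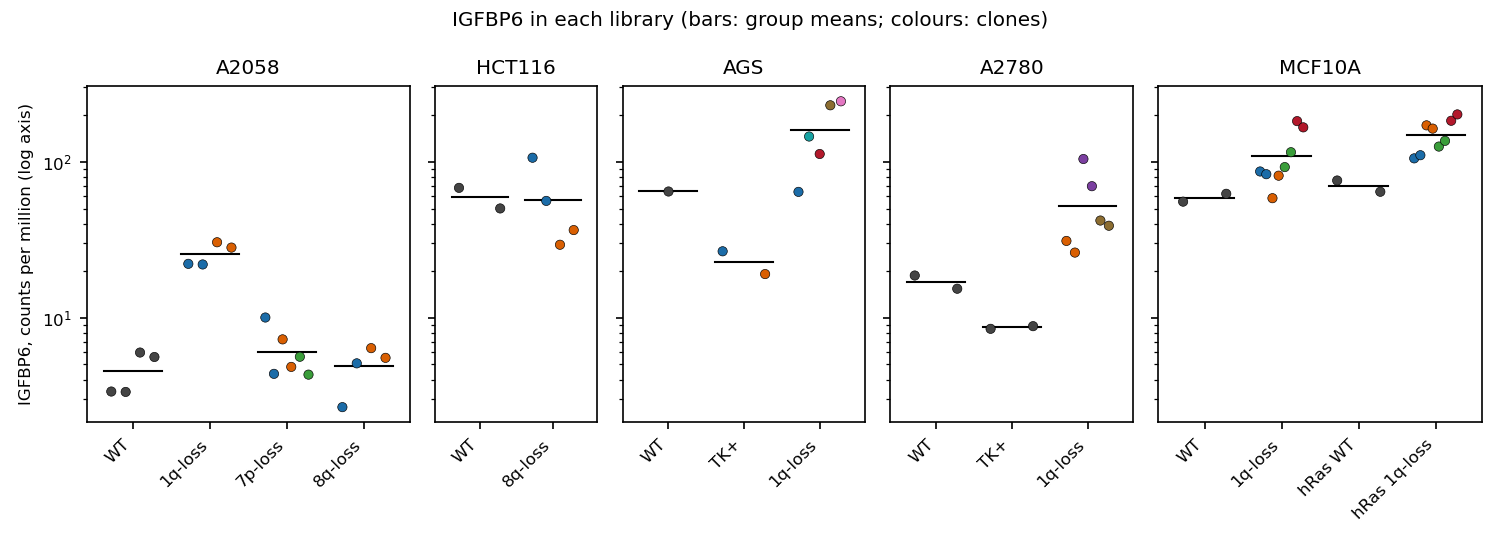
IGFBP6 in CPM (log axis) in each of the 62 libraries, by line and group, with bars for group means and colours for clones. The A2058 1q-loss points (21.9 to 30.4 CPM) and the A2780 1q-loss points (26.1 to 104 CPM) lie above all points of their controls, while AGS clone 1 lies beside the WT library at 64.0 and 65.1 CPM.

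In MCF10A without hRas, IGFBP6 was at 55.4 and 62.2 CPM in WT. It was at 86.5 and 83.1 CPM in clone 1, 58.3 and 81.3 CPM in clone 2, 92.3 and 115 CPM in clone 3 and 182 and 166 CPM in clone 4. Clone 4, made with the CO version, was highest, and clone 2 overlapped WT. The log2 fold change was 0.88 (SE 0.355), and 0.54 (SE 0.185) without clone 4. With hRas, WT had 75.7 and 64.1 CPM and the 8 loss libraries 105 to 201 CPM, with no overlap (log2 1.10, SE 0.256, and 0.95, SE 0.211, without clone 4).

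IGFBP3 in MCF10A differed between clones. It was at 5.84 and 8.41 CPM in WT and at 7.32 to 12.3 CPM in clones 1, 2 and 3, but at 90.2 and 128 CPM in clone 4. The log2 fold change was 2.27 (SE 1.27) with all clones and 0.36 (SE 0.215) without clone 4. Because clone 4 is the only one made with CO, clone and method cannot be told apart. Among hRas libraries IGFBP3 was at 9.64 and 12.2 CPM in WT, 12.8 and 10.9 CPM in clone 1, 61.2 and 59.3 CPM in clone 2, 87.1 and 87.9 CPM in clone 3 and 1147 and 1080 CPM in clone 4. Clones 2, 3 and 4 lay above hRas WT there and clone 1 did not. The log2 fold change of 1q loss among hRas libraries was 4.88 (SE 2.19), and 2.29 (SE 0.884) without clone 4. Marker lists varied more among these loss libraries than between the hRas WT libraries: the basal breast list summed to 700 to 7820 CPM against 5270 to 5494 CPM, the intestinal list to 6.98 to 464 CPM against 310 to 313 CPM and the fibroblast list to 14.3 to 286 CPM against 25.7 to 27 CPM. Without hRas the basal breast list summed to 4743 to 10693 CPM in the loss libraries and 6030 to 7292 CPM in WT. Their part in the MCF10A values was not tested.

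IGFBP7 was likewise highest in clone 4, at 57.2 and 77.1 CPM without hRas and 150 and 143 CPM with it, against 12.2 to 43.9 CPM and 24.5 to 41.7 CPM in the other clones. None of the 7 members tested was called in MCF10A 1q-loss (edgeR), where 2.04% of 15666 genes were. At an unadjusted p under 0.05 there was 1 member, beside 11.8% of all genes, and DESeq2 called 0 members, where it called 546 genes. Among hRas libraries edgeR called none either, where 0.214% of 15851 genes were called. There 2 members had an unadjusted p under 0.05, beside 14.3% of all genes, and DESeq2 called 1 member among 361 genes. IGF1R and INSR had log2 fold changes between -0.07 and 0.10 in both. Of 33 pathway genes tested without hRas, IGF2BP2 alone was called (log2 0.49, SE 0.0808), and with hRas none of 33 was.

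The effect of hRas could be read in WT cells and in the loss clones. In WT cells no member was called by edgeR (1.62% of 14646 genes were). An unadjusted p under 0.05 was found for 3 members, beside 14.2% of all genes. DESeq2 called 0 members, where it called 268 genes. IGF1R was at 94.1 and 108 CPM without hRas and 78.6 and 80.9 CPM with it (log2 -0.34, SE 0.0860, edgeR adjusted p = 0.0760). IGFBP3 had a log2 fold change of 0.63 (SE 0.209, edgeR adjusted p = 0.188). The pathway genes called were 4 of 33, all higher: STC1 (log2 1.99, SE 0.323, edgeR adjusted p = 0.00783), HTRA1, IRS1 (log2 1.52, SE 0.135, edgeR adjusted p = 8.16e-05) and FOXO1 (log2 0.66, edgeR adjusted p = 0.00543).

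In the 1q-loss clones, hRas went with more IGFBP3 at each clone number, by widely different amounts. The labels do not say that an hRas clone derives from the clone of the same number. The pairing by number is an assumption that rests on their correlated deviations. Clone means without and with hRas were 7.93 and 11.8 CPM in clone 1, 10.8 and 60.3 CPM in clone 2, 8.64 and 87.5 CPM in clone 3 and 109 and 1114 CPM in clone 4. These are folds of 1.49, 5.59, 10.1 and 10.2. IGFBP4 was near the lower end of measurement, at 0.413 to 1.75 CPM without and 0.780 to 4.74 CPM with hRas, and was higher with hRas in clones 2, 3 and 4 but not in clone 1. IGF1R was lower with hRas in all 4 clones, most in clone 2, from 101 to 50.6 CPM.

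Compared without regard to clone, none of the 7 members was called by edgeR (1.20% of 14332 genes were). At an unadjusted p under 0.05 there were 5, beside 18.1% of all genes. DESeq2 called 2 members, IGFBP3 and IGFBP4, among 798 genes. IGFBP4 had an edgeR adjusted p of 0.0504 (log2 1.58, SE 0.379) and IGFBP3 of 0.119 (log2 3.23, SE 1.05). Without hRas clone 1, edgeR called IGFBP2 (log2 1.69), IGFBP3 (3.63) and IGFBP4 (1.87). Without clone 4 of the libraries lacking hRas it called IGFBP3 (5.14) and IGFBP6 (0.81), and without either library of hRas clone 1 it called IGFBP4 (1.72 and 1.70).

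Clones with the same number deviated together with and without hRas, so hRas was also tested within clones, an analysis added after the values had been seen. With the clone as a block, edgeR called 15.1% of 14332 genes and 5 of the 7 members. IGFBP3 rose (log2 2.57, SE 0.306, edgeR adjusted p = 2.58e-04), as did IGFBP4 (log2 1.51, SE 0.353, edgeR adjusted p = 0.0125), IGFBP2 (log2 1.13, SE 0.236, edgeR adjusted p = 0.00746) and IGFBP6 (log2 0.52, SE 0.129). These libraries also enter the comparisons of 1q loss, so IGFBP6, although among the 5, is given as a description without a p-value. IGF1R fell (log2 -0.42, SE 0.0958, edgeR adjusted p = 0.0109). IGFBP7 (log2 0.43, edgeR adjusted p = 0.114) and INSR (log2 -0.14, edgeR adjusted p = 0.0988) did not pass. Within clones, 11 of 33 pathway genes rose and 3 fell, with STC1 (log2 2.91, SE 0.418), HTRA1 (log2 1.48, SE 0.200) and IRS1 (log2 1.43, SE 0.151) among those that rose. Without the block, where 1.20% of all genes were called, 3 rose: STC1 (log2 3.14), the CCN gene CTGF (log2 2.35) and the adaptor GRB10 (log2 0.56).

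A difference between the effect of hRas in loss clones and in WT was not detected for any member, in a fit that took no account of clone. In the interaction fit over all 20 MCF10A libraries edgeR called 0 of 16492 genes (0%), with 366 at an unadjusted p under 0.05 and 1 called by DESeq2. The log2 interaction was 2.60 (SE 2.20) for IGFBP3 and 0.22 (SE 0.450) for IGFBP6. The spread between clones entered these SEs, so the fit could not settle whether the effects of hRas differ.

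**Figure D4:**
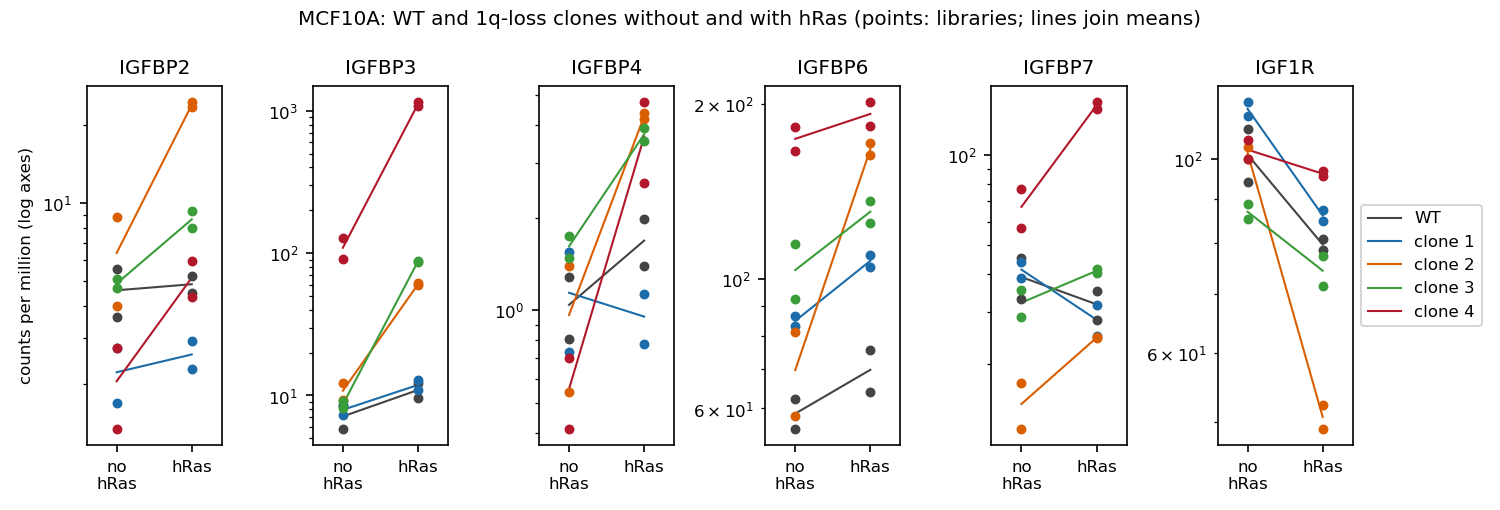
Levels of 6 members in MCF10A without and with hRas (CPM, a log axis for each gene), points for libraries and lines joining the means of WT and of each clone number. IGFBP3 of clone 4 runs from 109 to 1114 CPM, while clone 1 (7.93 to 11.8 CPM) stays beside WT.

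Loss of 7p in A2058 removes an extra copy of IGFBP3. IGFBP3 measured 14.2 and 7.28 CPM in clone 1, 28 and 10.6 CPM in clone 2 and 11.8 and 3.55 CPM in clone 3, against 13.7 to 27.5 CPM in WT. Libraries of the same clone differed widely, and the groups overlapped. The log2 fold change of -0.75 (SE 0.444, edgeR adjusted p = 0.505) stood beside a median of -0.51 over the 252 tested genes of 7p.

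None of the 7 members tested was called in A2058 7p-loss by edgeR (0.908% of 15305 genes were), with 2 at an unadjusted p under 0.05, and DESeq2 called 1, IGFBP7 (log2 0.47, DESeq2 adjusted p = 0.0243, against 0.121 from edgeR). IGFBP2 measured 18.6 and 27.2 CPM in clone 2 and 11.1 and 15.3 CPM in clone 3, but 47.1 and 122 CPM in clone 1, against 92.8 to 133 CPM in WT. Its log2 fold change was -1.46 (SE 0.576, edgeR adjusted p = 0.316). It was called when the second library of clone 1 (log2 -2.22, edgeR adjusted p = 0.0153) or all of clone 1 (log2 -2.62, edgeR adjusted p = 1.18e-04) was left out. IGFBP4 measured 27.4 and 32.9 CPM in clone 1, 169 and 168 CPM in clone 2 and 138 and 132 CPM in clone 3, against 140 to 196 CPM in WT, so clone 1 stood far below the other clones. IGFBP6 averaged 6.06 CPM (SD 2.24, n = 6) against 4.56 CPM (SD 1.41, n = 4) in WT and had a log2 fold change of 0.41 (SE 0.291, edgeR adjusted p = 0.580). No pathway gene of the 33 tested was called.

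Loss of 8q was measured in A2058 and HCT116. In A2058 no member of 7 was called by edgeR (2.03% of 15141 genes were), with 2 at an unadjusted p under 0.05. DESeq2 called 1 member among 666 genes, INSR, which the filter on low counts kept out of the edgeR fit: it was at 0 to 0.145 CPM against 0.254 to 1.02 CPM in WT. IGFBP3 measured 73.6 and 39.1 CPM in clone 1 and 34.3 and 20.2 CPM in clone 2 (log2 0.98, SE 0.347, edgeR adjusted p = 0.245), and IGFBP2 measured 18 and 36.3 CPM in clone 1 and 75.6 and 114 CPM in clone 2 (log2 -0.87, SE 0.442, edgeR adjusted p = 0.443). Clone 1 thus had more IGFBP3 and less IGFBP2 than clone 2. With clone 1 alone edgeR called IGFBP3 (log2 1.41) and IGFBP2 (log2 -2.04), and with clone 2 alone, or without the first library of clone 1, it called IGFBP5 (log2 -0.82 and -0.68). IGFBP6 was at 2.66 to 6.36 CPM (log2 0.10, SE 0.297, edgeR adjusted p = 0.924).

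In HCT116 no member of 6 was called by edgeR, where 0.140% of 15659 genes were. None had an unadjusted p under 0.05, where 5.45% of all genes did, and DESeq2 called 0 members, where it called 116 genes. IGFBP2 measured 741, 462, 348 and 378 CPM in the 8q-loss libraries and 860 and 495 CPM in WT. IGFBP6 measured 106 and 56.0 CPM in clone 1 and 29.3 and 36.4 CPM in clone 2, against 67.9 and 50.1 CPM. Both libraries of clone 2 lay below WT in both genes, while those of clone 1 overlapped WT. INSR measured 15.8 and 17.4 CPM in clone 2 and 7.31 and 5.48 CPM in clone 1, against 4.50 and 7.95 CPM (log2 0.89, SE 0.519, edgeR adjusted p = 1.000). The A2058 comparisons of 1q, 7p and 8q loss share the same WT libraries, so their values are given side by side only.

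**Figure D5:**
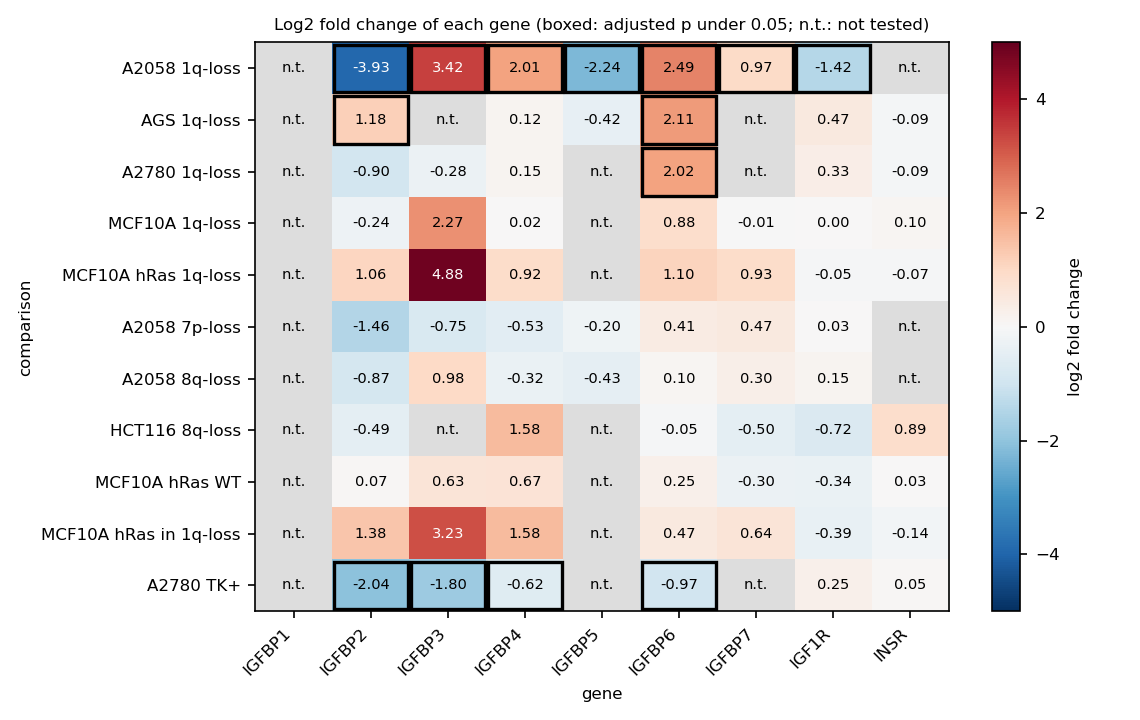
Log2 fold change of each gene (columns) in 11 comparisons (rows), red for higher and blue for lower, with boxes where the adjusted p was under 0.05 and grey where the gene was not tested. The A2058 1q-loss row has 7 boxes, while the 7p-loss, 8q-loss and MCF10A rows have none, and IGFBP6 is boxed and positive in 3 of the 5 comparisons of 1q loss, which is the pattern the family was picked on.

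The TK+ cells of A2780 keep the 1q gain and carry the integrant, so they show how far such a derivative differs from WT without loss of the arm. IGFBP6 measured 8.46 and 8.80 CPM in TK+ and 18.6 and 15.3 CPM in WT, and IGFBP2 measured 0.793 and 1.28 CPM against 4.29 and 4.29 CPM. Neither gene overlapped between the groups. IGFBP6 was lower (log2 -0.97, SE 0.142), as was IGFBP2 (log2 -2.04, SE 0.298, edgeR adjusted p = 5.89e-04). Both groups were also the controls of the A2780 1q-loss comparison. A low TK+ level adds to the rise of IGFBP6 there, on which the family was picked. The value of IGFBP6 is therefore a description, without a p-value. IGFBP4 fell from 15.1 and 14 CPM to 8.86 and 10.1 CPM (log2 -0.62, SE 0.137, edgeR adjusted p = 0.0112). IGFBP3 was at 1.31 and 1.23 CPM in WT and 0.397 and 0.321 CPM in TK+ (log2 -1.80, SE 0.453, edgeR adjusted p = 0.0220).

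Thus 4 of 6 members tested were called, all lower, where 11.2% of 14888 genes were called, and the median log2 fold change was -0.79 over the members and 0.00 over all genes. IGFBP6, whose TK+ level entered the pick, is 1 of the 4, and nothing is read from this count. IGF1R (log2 0.25, edgeR adjusted p = 0.198) and INSR (log2 0.05, edgeR adjusted p = 0.839) did not pass. DESeq2 called 2 of the 4, among 1153 genes, with IGFBP3 at an adjusted p of 0.187 and IGFBP4 at 0.0510. Without WT replicate 1 edgeR no longer called IGFBP3 (log2 -1.76) or IGFBP4 (log2 -0.56), without WT replicate 2 or TK+ replicate 2 it no longer called IGFBP3 (log2 -1.85 and -1.66), and without TK+ replicate 1 it called IGF1R (log2 0.40). A group left with 1 library is assumed to vary like the other. The WT and TK+ cells also differed in their markers: COL1A2 was at 372 and 376 CPM in WT and 11 and 11.2 CPM in TK+, and KRT8 at 131 and 140 CPM against 2.34 and 3.30 CPM. The part of these in the family values was not tested.

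Among pathway genes of A2780 TK+, 29 were tested, 1 rose and 9 fell, beside the 11.2% of all genes called. FOXO1 rose (log2 1.64, SE 0.360, edgeR adjusted p = 0.0104). IRS1, GRB10, GRB14 and GAB1, which are substrates and adaptors of the receptors, fell, GRB14 the most (log2 -6.18, SE 0.810, edgeR adjusted p = 2.48e-04). STC1 (log2 -1.71, SE 0.471, edgeR adjusted p = 0.0362) and PIK3R1 (log2 -0.50, SE 0.0993, edgeR adjusted p = 0.00519) fell as well. IRS1 was at 193 and 194 CPM in WT and 98.0 and 126 CPM in TK+, and GRB10 at 13.9 and 15.3 CPM against 0.617 and 0.734 CPM. CTGF was at 9.46 and 12.4 CPM in WT and had 2 counts in each TK+ library.

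Around IGFBP6 the nearest tested coding genes, SPRYD3 (18 kb away) and CSAD (55.3 kb away), had log2 fold changes of 0.14 (SE 0.135) and 0.44 (SE 0.167) in A2058 1q-loss, where CSAD was called higher. In AGS they stood at -0.45 (SE 0.219) and -0.79 (SE 0.248), and in A2780 at 0.31 (SE 0.0859) and -0.01 (SE 0.105), where SPRYD3 was called higher. The gap between the IGFBP2 and IGFBP5 genes is 7668 bases, and both were lower in A2058 1q-loss, whereas in AGS IGFBP2 was at a log2 fold change of 1.18 and IGFBP5, at 0.592 to 4.90 CPM, at -0.42 (SE 0.623).

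Over the 45 libraries of loss clones, each as its log2 difference from its own controls, the coding genes outside 1q, 7p and 8q that moved most like IGFBP6 were CITED2 (Pearson r = 0.713), CPA4 (0.710), SLC7A6 (0.705), JUND (0.698) and NFKBIA (0.691). With each group's own mean removed, the same r was 0.455, 0.0228, 0.330, 0.351 and 0.601. The gene most like IGFBP2 was ZNF362 (0.780), that most like IGFBP4 was SEC11A (0.730) and that most like IGF1R was CYFIP2 (0.840). With group means removed, these r were 0.484, 0.548 and 0.330. All genes named here were picked for the highest r among 9229 candidates. Libraries of 1 clone and 1 line share their source and their controls, so these r are descriptions of 45 dependent points.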

How the data were processed

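Raw read counts per gene for each library were the values the authors deposited. The submitters' processing notes name HISAT2 2.0.5, featureCounts 1.5.0-p3 and the build hg38, while the A2780 tables carry GRCh37 coordinates. Their strand setting is not given in the sources used here. No clinical samples were involved, as all 5 lines are established.

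From these counts, genes were kept by edgeR's filterByExpr (minimum count 10, minimum total 15), scaled by TMM and compared with edgeR 4.0.16's quasi-likelihood test in R 4.3.3 (limma 3.58.1). Benjamini-Hochberg adjustment ran over all genes tested, each comparison used only its own groups, and calls needed an adjusted p under 0.05. DESeq2 1.42.0, other scalings and filters, summed clones, a replicate block, other controls and each library or clone left out were tried as alternatives. Levels per length are counts divided by the length each table gives, scaled to 1000000 per library. Log2 CPM used a prior count of 2. Summaries and plots used pandas 2.3.3 and scipy 1.17.1 (Python 3.11.15), with matplotlib 3.10.9 and numpy 2.4.6. The fits were also run on simulated counts with known changes. Those libraries were drawn independently, with no effect of clone, so the outcome does not cover designs in which libraries share a clone.

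The 9 members, the 46 pathway genes and the marker lists were chosen with earlier results of these data known. All members are described. Of each pathway list, the gene with the largest change in each direction among those called was named, except in A2058 1q-loss against the other clones. Other pathway genes and markers were named after their values were seen. Depth was 15042068 to 30984036 counts per library, and intervals and floors cover counting error only. The 31 pairs of libraries of 1 clone or group differed beyond sampling noise (chi-square per degree of freedom 3.63 to 82.6). MCF10A clones with the same number correlated in their deviations from the group mean with and without hRas (r = 0.49, 0.29, 0.52 and 0.67 for clones 1 to 4), each best with its own number, so the clone served as a block.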

Additional observations from a re-analysis of the deposited data

Results flagged for a closer look

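IGFBP2 in the second library of A2058 7p-loss clone 1 was at 122 CPM, far above the next highest of the 6 libraries (47.1 CPM), and this gap was past Dixon's limit. Among the 60 combinations of group and gene tested this way, chance is expected to mark about 5% of them.

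The other 3 results are genes whose libraries all lay on one side of the control mean in one line and all on the opposite side in another, under loss of the same arm. The difference itself was not tested for any of them. IGFBP2 had a mean log2 change of -4.16 in A2058 1q-loss and 1.21 in AGS 1q-loss, a difference of -5.37. IGF1R had mean changes of -1.44 and 0.44 in the same comparisons, a difference of -1.87. The change in AGS was not called, and its groups overlapped. IGF1R had a mean log2 change of 0.16 in A2058 8q-loss and -0.76 in HCT116 8q-loss, a difference of 0.92. Neither change was called, and both A2058 8q-loss clones overlapped WT.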

How the results depend on the processing

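Of 1812 alternative values of the 87 member fold changes, 1690 kept their direction and side of the threshold, 23 lost and 28 gained the call, and 71 changed sign. None of the 21 called results changed sign. DESeq2 called 1 member in A2058 7p-loss, 1 in A2058 8q-loss, 1 in MCF10A hRas 1q-loss, 2 for hRas in 1q-loss and 2 in A2780 TK+. Without a filter, 1 was called in A2058 8q-loss and 2 for hRas in WT, and a mean CPM of at least 1 gave 1 for hRas in 1q-loss. AGS 1q-loss gave 0 against WT only and 0 against TK+ only, and A2780 1q-loss gave 0 against WT only. Leaving out a library or clone gave 0 to 1 in A2058 7p-loss, 0 to 2 in A2058 8q-loss, 0 to 2 in AGS, 0 to 3 for hRas in 1q-loss, 2 to 5 in A2780 TK+ and 5 to 7 in A2058 1q-loss against the other clones.

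Replicate numbers did not pair the libraries in every comparison (correlations from -0.18 to 0.49). The 1 correlation in A2780 TK+ was 0.15. Those in A2058 1q-loss were 0.06 to 0.23, and 0.06 to 0.43 against the other clones. With a replicate block 2 members were called for hRas in WT, IGFBP3 (log2 0.63, edgeR adjusted p = 0.0240) and IGF1R (log2 -0.34, edgeR adjusted p = 0.00492), and the clone block gave 5 for hRas in 1q-loss.

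Without division by length the leading shares were 68.9% for IGFBP5 in A2058, 91.6% for IGFBP2 in HCT116, and for IGFBP6 44.8% in A2780 and 53.3% in MCF10A. Sign changes were all in values that were not called. With WT replicates 3 and 4 only, IGF1R was -0.11 in A2058 7p-loss and IGFBP6 -0.24 in A2058 8q-loss. Against WT only, IGFBP4 was -0.14 and INSR 0.01 in AGS, and IGFBP4 -0.12 in A2780. Against TK+ only, IGFBP2 was 0.46 and IGFBP3 0.89 in A2780. With summed clones IGFBP4 was -0.01 in MCF10A. The cause was not tested.

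Leaving out libraries or clones, log2 values ranged as follows. In A2058 7p-loss IGFBP5 ran from -0.61 to 0.10 and IGF1R from -0.16 to 0.21, and in A2058 8q-loss IGFBP6 from -0.25 to 0.37. In HCT116 IGFBP6 ran from -0.83 to 0.46 and IGFBP7, which has libraries at 0, from -7.04 to 0.49. In AGS IGFBP4 ran from -0.04 to 0.29 and INSR from -0.23 to 0.06, and in A2780 IGFBP3 from -0.54 to 0.05 and IGFBP4 from -0.04 to 0.39. In MCF10A 1q-loss IGFBP2 ran from -0.59 to 0.11, IGFBP4 from -0.27 to 0.40, IGFBP7 from -0.42 to 0.26, IGF1R from -0.10 to 0.10 and INSR from -0.06 to 0.27. In hRas 1q-loss IGFBP7 ran from -0.02 (without clone 4) to 1.19, IGF1R from -0.18 to 0.10 and INSR from -0.15 to 0.01. For hRas in WT IGFBP2 ran from -0.20 to 0.42 and INSR from -0.13 to 0.20, and for hRas in 1q-loss IGFBP7 from -0.31 to 1.04. In A2780 TK+ INSR ran from -0.07 to 0.17, and in the interaction IGFBP7 ran from -0.01 to 1.33 and IGF1R from -0.18 to 0.10.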
